A study of Mus musculus with 19 samples.

Results

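The comparison described here set the hippocampus of APP-PS1 mice that ate ibuprofen chow against that of untreated wild-type littermates, and so measured what still set the treated model apart from a normal animal. It used 9 of the 19 arrays of the series, chosen by their titles: 5 from APP-PS1 mice on ibuprofen chow and 4 from wild-type mice on control chow. The other 10 arrays, 5 in each group, came from control-fed APP-PS1 and ibuprofen-fed wild-type animals. All mice were on a C57BL/6J background and 6 months old at collection. The APP-PS1 genotype, written APPSwe-PS1deltaE9 in the labels, combines an amyloid precursor protein transgene with the Swedish mutation and a presenilin transgene that lacks an exon, both driven by the mouse prion protein promoter. Ibuprofen was mixed into the chow at 375 ppm and eaten from 3 to 6 months of age, and the control chow was the same diet without it. Genotype and diet differ together between the compared groups, so their effects cannot be told apart within this comparison. The steps that make it up are therefore given beside it: APP-PS1 against wild-type on control chow (the genotype step), and ibuprofen against control chow within APP-PS1 (the chow step). These steps add up to the whole difference and share its arrays, so they are not independent of it.

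In this mouse line amyloid-β, cut from the precursor protein by β-secretase and the presenilin-containing γ-secretase, collects into plaques in hippocampus and cortex. Microglia, the resident macrophages of the brain, gather at plaques and switch on a set of lysosomal, lipid-handling and chemokine genes, and astrocytes nearby raise intermediate filaments such as GFAP. Ibuprofen blocks the cyclooxygenases, which make prostaglandin precursors from arachidonic acid.

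RNA was measured on whole-transcript arrays, whose values are log2 probe-set signals after robust multi-array averaging (RMA). A difference of 1 on this scale is a doubling of signal, and folds below are 2 raised to the log2 difference. The arrays of the series were close to each other, with correlations over genes of 0.980 to 0.999 and of at least 0.993 among the 9 compared. The mean log2 value of 16 hippocampal CA pyramidal markers was 10.04 to 10.18 on the 9 arrays, and that of 11 neuronal markers was 12.55 to 12.61. No detection calls were used, and precision is limited by the number of arrays.

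Of 19938 genes tested in a limma model of all 19 arrays, 3 passed a Benjamini-Hochberg adjusted p of 0.05 (0.0150% of the genes), all higher in treated APP-PS1 mice, and none passed in the other direction (0.00%). The 3 were Prnp, which encodes the prion protein, App, which encodes the amyloid precursor protein, and Cst7, which encodes cystatin F, an inhibitor of lysosomal cathepsins made by plaque-associated microglia. At an unadjusted p under 0.05 in the same limma fit there were 655 genes (3.29%), of which 294 genes were higher (1.47%) and 361 lower (1.81%). The median difference over all genes was 0.00. Between the genotypes on control chow 2 genes passed (0.0100%), and between the chows within APP-PS1 none did (0.00%). The number of calls depended in part on a single array: without APP-PS1 ibuprofen replicate 2 the same test gave 10 higher and 16 lower genes, the 3 among them. That array was the treated array nearest to the wild-type mean in 15 of the 20 named genes with the smallest p. Leaving it out therefore widens their differences. With array medians subtracted there were 5 higher and 1 lower, with the replicate number as a block 4 and 2, and with arrays weighted by their quality 61 and 46.

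The start regions of the 3 genes are shown because the prion protein promoter drives the transgenes, and Cst7 is the called gene with no transgene. Each line gives the 250 bases before the start in GRCm38.p6, from RefSeq, 5′ to 3′ along the gene. Capitals mark letters of the motifs searched, on either strand. The promoter elements were the TATA box, searched as TATAAA, and the CCAAT box, searched by the letters of its name. The GC box was searched as GGGCGG. The core bound by the myeloid factor PU.1 was searched as AGGAAGT. Prnp lies at chr2:131909678-131909927 on the plus strand, App at chr16:85173708-85173957 on the minus strand, and Cst7 at chr2:150570165-150570414 on the plus strand.
Prnp: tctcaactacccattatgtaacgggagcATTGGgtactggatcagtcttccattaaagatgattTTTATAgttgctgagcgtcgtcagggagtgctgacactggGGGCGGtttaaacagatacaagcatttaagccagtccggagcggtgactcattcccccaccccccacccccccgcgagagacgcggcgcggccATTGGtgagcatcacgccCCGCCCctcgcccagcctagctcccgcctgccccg
App: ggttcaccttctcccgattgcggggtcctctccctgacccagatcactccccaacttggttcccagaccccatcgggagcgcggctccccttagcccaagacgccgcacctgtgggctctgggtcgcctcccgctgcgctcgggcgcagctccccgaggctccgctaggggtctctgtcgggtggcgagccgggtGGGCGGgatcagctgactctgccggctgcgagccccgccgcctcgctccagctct
Cst7: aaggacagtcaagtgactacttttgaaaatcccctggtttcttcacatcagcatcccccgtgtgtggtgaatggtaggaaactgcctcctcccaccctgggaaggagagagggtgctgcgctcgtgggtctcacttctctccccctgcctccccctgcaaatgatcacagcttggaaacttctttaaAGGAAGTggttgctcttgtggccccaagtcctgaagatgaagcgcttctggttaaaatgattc

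The windows differ in base content and in what they match. Guanine and cytosine made up 70.8% of the App window, 58.8% of that of Prnp and 51.6% of that of Cst7. Prnp held CCAAT boxes beginning 222 and 53 bases before the start, GC boxes at 146 and 35, and a TATA match at 186. Of these, the GC box at 146 read along the gene, and the others were reverse-strand matches. App held a GC box at 55 bases before the start, and Cst7 a PU.1 core at 63. Among 32851 promoters of the same length, 33.8% held the CCAAT letters, 32.7% the GC box, 12.4% the TATA letters and 7.69% the PU.1 core. These are letter matches and no evidence of a bound factor.

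Prnp gave the most uniform difference. Its log2 values were 12.75, 12.69, 12.71 and 12.68 on the wild-type arrays and 13.44, 13.36, 13.37, 13.42 and 13.43 on the treated APP-PS1 arrays. The 2 groups were far apart and each was narrow. Prnp (probe set 10476314) rose by 0.70 ± 0.03 (SE, n = 5 and 4 arrays; 1.62-fold; limma adjusted p = 3.39e-11). App (10440491) read 13.21, 13.22, 13.22 and 13.16 in wild-type mice against 13.60, 13.58, 13.55, 13.57 and 13.64 in treated APP-PS1 mice. Here too every treated array lay above every wild-type array, and App rose by 0.39 ± 0.04 (1.31-fold; adjusted p = 5.2e-06). The genotype step carried both: it was 0.67 for Prnp and 0.40 for App, with chow steps of 0.03 and -0.01. These probe sets do not separate transgene RNA that shares their sequence from RNA of the mouse's own genes.

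Other genes of amyloid precursor processing lay close to wild-type. Of 20 measured, App was called, and it and Psenen, a γ-secretase subunit, had every treated array above every wild-type array (10% of the list, against 0.762% of all genes). Psenen differed by 0.09 ± 0.04 (adjusted p = 1). The median over the list was 0.04, and Bace1, the β-secretase, gave -0.07 and Psen2, a presenilin, 0.02.

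Cst7 was the called gene that is neither a transgene nor the source of its promoter. Its values were 7.05, 6.98, 7.14 and 7.11 in wild-type mice and 8.27, 7.80, 7.84, 7.69 and 8.13 in treated APP-PS1 mice. The treated arrays were more spread, and the lowest of them, replicate 4, was still well above the highest wild-type array. Cst7 (10476945) rose by 0.87 ± 0.12 (1.83-fold; adjusted p = 0.00233), of which the genotype step was 0.66 and the chow step 0.21. Ibuprofen in wild-type mice gave 0.00 for this gene.

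Ccl3, which encodes a chemokine that attracts macrophages and is made by activated microglia, had a larger difference and missed the threshold. It read 7.59, 7.28, 7.47 and 7.27 in wild-type mice and 8.57, 8.17, 8.17, 8.12 and 8.50 in treated APP-PS1 mice. The groups did not overlap, and replicates 1 and 5 of the treated mice were the highest for Ccl3 as they were for Cst7. The difference was 0.90 ± 0.16 (1.87-fold; adjusted p = 0.0593), nearly all of it in the genotype step (0.84, chow step 0.06). With the replicate number as a block, Ccl3 passed at 0.87 (adjusted p = 0.0064), and without APP-PS1 ibuprofen replicate 2 it passed at 0.93 (adjusted p = 0.0266). Ccl3 passed in 9 of 24 alternative settings, and its adjusted p reached 0.321 among the others.

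**Figure D1:**
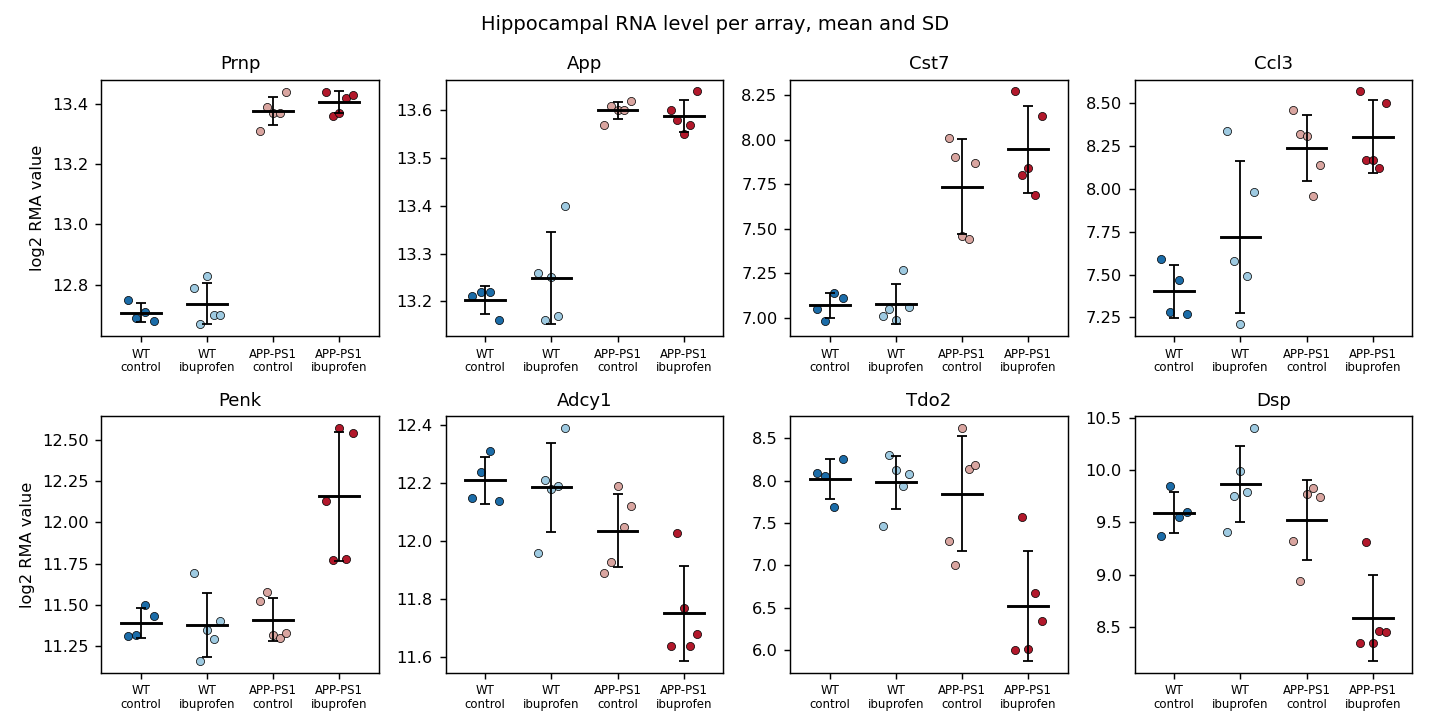
Log2 RMA value (vertical axis) of 8 genes on each array of the 4 groups (points), with the group mean and SD (bars). Prnp, App, Cst7 and Ccl3 stand high in APP-PS1 mice on either chow, whereas Penk stands high, and Adcy1, Tdo2 and Dsp low, in APP-PS1 mice on ibuprofen chow.

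General markers of microglia and macrophages stood higher in treated APP-PS1 mice, although none of the 12 passed the adjusted threshold. The median difference was 0.24 (genotype step 0.15, chow step 0.10), and ibuprofen in wild-type mice gave a median of 0.11. At an unadjusted p under 0.05, 8 were higher, against 1.47% of all genes, and none lower. In 5 of the 12 every treated array lay above every wild-type array (41.7%, against 0.762% of all genes). The mean over the list was 9.69, 9.57, 9.52, 9.48 and 9.80 on the treated arrays and 9.36, 9.44, 9.39 and 9.32 on the wild-type arrays, with no overlap. In bulk tissue, more cells of a type and more RNA per cell cannot be told apart. Cd68, a lysosomal glycoprotein of macrophages, gave 0.46 ± 0.11 (adjusted p = 0.404). Csf1r, the receptor on which microglial survival depends, gave 0.26 (adjusted p = 0.375), Ly86 gave 0.39 and Laptm5, a lysosomal membrane protein, 0.28. Some of these markers recur in the lists that follow. Cd68 and Tyrobp are also counted as plaque-associated, Csf1r and Cx3cr1 as resting microglia, and Itgam, Fcer1g and C1qa with complement and Fc receptors. The counts of these lists are therefore not independent of each other.

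The list of plaque-associated microglial genes had a median of 0.19 over 34 genes, with 30 above 0 against 52.6% of all genes. Cst7 was the called member. With it, 16 members had an unadjusted p under 0.05 in the higher direction and 1 in the lower, where all genes had 1.47% and 1.81%. In 7 all treated arrays were above all wild-type arrays (20.6%, against 0.762% of all genes). Trem2, the lipid-sensing receptor that this microglial state needs, read 9.24, 9.22, 9.29 and 9.39 in wild-type mice and 9.61, 9.50, 9.43, 9.60 and 9.67 in treated APP-PS1 mice. Its groups did not overlap, yet the difference of 0.28 ± 0.07 had an adjusted p of 0.582. Clec7a, a β-glucan receptor of the same state, differed by 0.26 ± 0.08 (adjusted p = 0.683), also with no overlap. Tyrobp, the signalling adaptor of Trem2, gave 0.30, and the cathepsin genes Ctsd and Ctsb gave 0.31 and 0.13. Apoe, a lipid carrier counted in the same set, gave 0.02. The list's mean was 9.65, 9.74, 9.66 and 9.65 on the wild-type arrays and 9.79 to 10.05 on the treated ones.

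Genes of resting microglia lay on the same side with smaller differences. Their median was 0.11 over 15 genes, of which 14 were above 0, against 52.6% of all genes. At an unadjusted p under 0.05, 4 were higher and 1 lower, where all genes had 1.47% and 1.81%. The chow step had a median of 0.05 and ibuprofen in wild-type mice 0.14. With the oligodendrocyte mean as a covariate the list's median was 0.06, and with array weights it was 0.16. P2ry12, the nucleotide receptor of ramified microglia, gave 0.01, Tmem119 and Cx3cr1 each 0.11, and Olfml3 0.33. No member of this list passed the adjusted threshold.

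Complement and Fc receptor genes had a median of 0.21, and all 15 measured were above 0, against 52.6% of all genes. Of these, 7 had an unadjusted p under 0.05 (1.47% of all genes were higher at that p) and 3 had groups that did not overlap (20% of the list, against 0.762% of all genes). The list's mean overlapped between the groups: wild-type replicate 2, at 8.87, lay above treated replicates 2 (8.83) and 4 (8.81). C4b, a complement component made by astrocytes and microglia, read 9.21, 9.47, 9.25 and 9.19 in wild-type mice against 9.94, 9.52, 9.92, 9.60 and 10.61 in treated APP-PS1 mice. Treated replicate 2 was just above the highest wild-type array and replicate 5 far above it. The C4b difference was 0.63 ± 0.17 (1.55-fold; adjusted p = 0.6). Fcgr2b, an inhibitory Fc receptor, gave 0.37, the complement receptor gene C3ar1 0.38 and Fcer1g, the shared Fc receptor chain, 0.26.

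Cytokines and chemokines lay near 0 as a group. Their median was 0.04 over 35 genes, and 4 had an unadjusted p under 0.05, all higher: Ccl3, Ccl9 (0.29), Ccl6 (0.19) and Il6 (0.16). Of all genes 1.47% were higher at that p. The inflammatory cytokine genes Il1b and Tnf gave -0.02 and 0.14, and Ccl4, a chemokine close to Ccl3 in sequence and receptor use, gave -0.06.

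Reactive astrocyte genes mostly lay above wild-type. Gfap, the intermediate filament of reactive astrocytes, read 11.37, 11.53, 11.16 and 11.43 in wild-type mice and 11.87, 11.73, 12.39, 11.82 and 12.70 in treated APP-PS1 mice. Replicates 3 and 5 of the treated mice stood apart from the other 3, all 5 above every wild-type array. The Gfap difference was 0.73 ± 0.17 (1.66-fold; adjusted p = 0.215), split between a genotype step of 0.42 and a chow step of 0.31. Of 21 reactive astrocyte genes, 20 were above 0, against 52.6% of all genes (median 0.14). An unadjusted p under 0.05 was found for 5 (1.47% of all genes were higher at that p). Gfap alone had groups that did not overlap (4.76% of the list, against 0.762% of all genes). The list's mean overlapped, with wild-type replicate 2 at 8.81 above treated replicates 1 (8.75) and 2 (8.68). Vim, another intermediate filament, gave 0.46 and Serpina3n, a secreted protease inhibitor, 0.49, with treated replicate 5 again the highest. The 14 general astrocyte markers had 6 members above 0 (52.6% of all genes were), and Aqp4, the water channel of astrocyte endfeet, gave 0.32 (adjusted p = 0.733).

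Genes of prostaglandins and leukotrienes, which include part of the drug's own pathway, lay near wild-type levels as a group. Ptgs1, the other cyclooxygenase gene, was not on this list. Of 24 genes of prostaglandin and leukotriene synthesis, breakdown and reception none was called, and the median was 0.05. An unadjusted p under 0.05 was found for 2, both higher (1.47% of all genes were higher at that p). Ptgs2, the inducible cyclooxygenase, read 10.98, 10.90, 10.83 and 10.93 in wild-type mice and 11.07, 10.93, 11.38, 11.19 and 11.23 in treated APP-PS1 mice. Treated replicate 2 fell inside the wild-type range and the other 4 above it. The Ptgs2 difference was 0.25 ± 0.11 (adjusted p = 1). Hpgd, which inactivates prostaglandins, was the member with no overlap (4.17% of the list, against 0.762% of all genes). It gave 0.31 ± 0.09 (adjusted p = 0.641), nearly all in the genotype step (0.29).

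Among the 20 named genes with the smallest p, 11 were higher and 9 lower, and in all 20 the groups did not overlap, which the choice by p makes likely. In 7 of the 11 higher genes the genotype step was the larger, and in 4 the chow step. In all 9 lower genes the chow step was the larger: Adcy1, Rtl3, Arhgap20, Tdo2, Dsp, Mkx, Ptchd4, Fat4 and Rasgrf2. Treated replicate 2 was the array nearest to the wild-type mean in all 9 of these, and in 15 of the 20. Leaving that array out widens the differences of those genes by construction, so passing without it is no separate support. The genotype and chow steps share the control-fed APP-PS1 arrays with opposite sign, and whether either step exceeded the other was not tested.

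**Figure D2:**
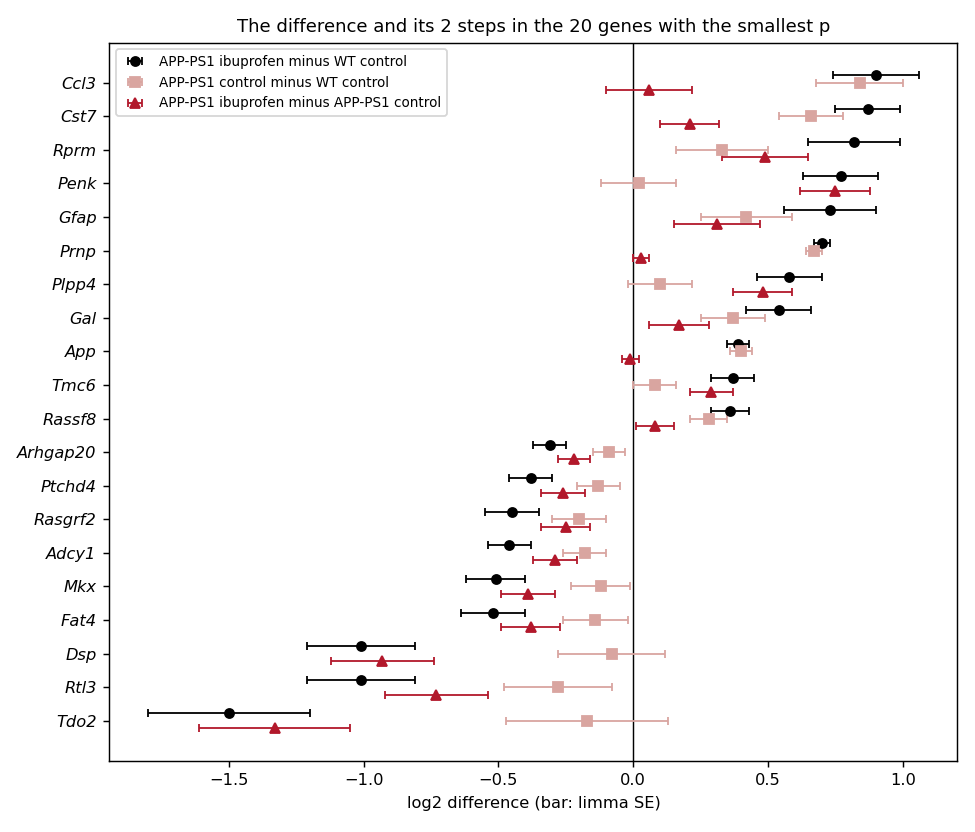
Log2 difference (horizontal axis) with its limma SE in the 20 named genes with the smallest p, for the whole comparison (black circles) and its genotype step (pink squares) and chow step (red triangles). Prnp, App and Ccl3 have chow steps near 0, Penk has a genotype step of 0.02, and the 9 lower genes have the larger step between the chows.

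Of the lower genes, Tdo2 and Dsp mark granule cells, the principal neurons of the dentate gyrus. Tdo2, which opens the tryptophan ring in the kynurenine pathway and in hippocampus marks granule cells, read 8.09, 8.06, 7.69 and 8.25 in wild-type mice and 6.00, 7.57, 6.02, 6.68 and 6.34 in treated APP-PS1 mice. Treated replicate 2 came close to the wild-type arrays, while the other 4 were more than 1 unit below them. The Tdo2 difference was -1.50 ± 0.30 (2.83-fold lower; adjusted p = 0.101), with a genotype step of -0.17 and a chow step of -1.33, and ibuprofen in wild-type mice gave -0.04. Without APP-PS1 ibuprofen replicate 2 it passed at -1.76 (adjusted p = 0.00513). Tdo2 passed in 2 of 24 alternative settings, and its adjusted p reached 0.353 among the others.

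Dsp encodes desmoplakin, a desmosome protein that granule cells also express. It read 9.37, 9.85, 9.55 and 9.60 in wild-type mice and 8.35, 9.31, 8.35, 8.46 and 8.45 in treated APP-PS1 mice. As for Tdo2, replicate 2 alone lay next to the wild-type range. The Dsp difference was -1.01 ± 0.20 (2.01-fold lower; adjusted p = 0.111), with steps of -0.08 and -0.93, and without that array it passed at -1.19 (adjusted p = 0.00547). With the replicate block on only the compared groups, a setting chosen after seeing the data, Dsp passed at -0.98 (adjusted p = 0.0222). With the replicate number as a block in the fit to all arrays, Dsp did not pass.

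Over the whole list of 15 granule cell markers the median was -0.17 (genotype step 0.01, chow step -0.20), and 2 were above 0, against 52.6% of all genes. No member passed the adjusted threshold. At an unadjusted p under 0.05, 9 were lower, against 1.81% of all genes, and 1 was higher, against 1.47%. In 3 members (20%, against 0.642% of all genes) every treated array was below every wild-type array: Tdo2, Dsp and Npnt, a matrix protein. Prox1, the transcription factor that sets granule cell identity, gave -0.29 ± 0.08 (adjusted p = 0.641), and Fam163b gave -0.26. Prox1 passed in 1 of 24 alternative settings, without APP-PS1 ibuprofen replicate 2 (adjusted p = 0.0283). Members outside the naming rule, given after their values were seen, were Calb1, a calcium buffer, at -0.32, Npnt at -0.37 and Lct at -0.40. C1ql2, a synaptic organiser of mossy fibres and also outside that rule, lay on the other side at 0.31, with all 5 treated arrays above the wild-type ones. The list's mean was 9.85, 10.22, 9.67, 9.90 and 9.95 on the treated arrays and 10.17, 10.27, 10.14 and 10.24 on the wild-type arrays, so that replicate 2 alone overlapped. Tdo2 and Dsp, named above for their small p, are on this list and weigh on its mean and counts. The list is therefore no separate support for them, and its mean without them was not computed.

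Markers of CA pyramidal cells had a median of -0.02 over 16 genes, and none had an unadjusted p under 0.05. The other 11 genes of the kynurenine pathway likewise had none, with Ido1, a second tryptophan-opening enzyme, at -0.08 and Kmo, which hydroxylates kynurenine, at 0.12.

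Adcy1, the calcium-stimulated adenylyl cyclase of hippocampal neurons, was the lower gene with the smallest p. It read 12.15, 12.24, 12.31 and 12.14 in wild-type mice and 11.64, 12.03, 11.77, 11.64 and 11.68 in treated APP-PS1 mice. All 5 treated arrays were below the wild-type range, replicate 2 by the least. The Adcy1 difference was -0.46 ± 0.08 (1.38-fold lower; adjusted p = 0.054), with a genotype step of -0.18 and a chow step of -0.29. It passed with the replicate number as a block (-0.48, adjusted p = 0.0134) and without APP-PS1 ibuprofen replicate 2 (-0.53, adjusted p = 0.00298). Adcy1 passed in 6 of 24 alternative settings, and its adjusted p reached 0.279 among the others.

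Of the 24 genes of cyclic AMP signalling, 4 had an unadjusted p under 0.05, all lower (1.81% of all genes were lower at that p). The list's median was -0.02, with 10 genes above 0 and 14 below. Adcy8, the other calcium-stimulated cyclase, gave -0.20 and Pde1b, a calmodulin-dependent phosphodiesterase, -0.14. Arpp21, a cyclic AMP-regulated phosphoprotein gene, gave -0.23 ± 0.06 (adjusted p = 0.404). Its genotype step was -0.34 and its chow step 0.10, so it lay nearer to wild-type on ibuprofen than on control chow.

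Rtl3, a gene derived from a retrotransposon, read 8.35, 8.51, 8.32 and 8.44 in wild-type mice and 6.96, 7.85, 7.25, 7.55 and 7.37 in treated APP-PS1 mice. The groups were well apart with treated replicate 2 the nearest again. The Rtl3 difference was -1.01 ± 0.20 (2.01-fold lower, adjusted p = 0.101), and with the replicate number as a block it passed at -1.08 (adjusted p = 0.0354). Rtl3 passed in 6 of 24 alternative settings, and its adjusted p reached 0.334 among the others. The remaining lower genes had smaller differences: Arhgap20 gave -0.31 ± 0.06, Mkx, a homeobox factor, -0.51 ± 0.11, Fat4, a giant cadherin, -0.52 ± 0.12, Rasgrf2, a Ras exchange factor, -0.45 ± 0.10, and Ptchd4 -0.38 ± 0.08. Their adjusted p ran from 0.101 for Arhgap20 to 0.197 for Rasgrf2. Without APP-PS1 ibuprofen replicate 2, Arhgap20 (adjusted p = 0.00858), Fat4 (0.0119), Mkx, Rasgrf2 and Rtl3 (each 0.0203) passed. That array was the treated array nearest to the wild-type mean in each of these, so leaving it out widens their differences. Over 24 alternative settings Arhgap20 passed in 3, Fat4 and Rasgrf2 each in 2, and Mkx in 5. With the replicate block on only the compared groups, a setting chosen after seeing the data, Mkx passed (adjusted p = 0.0493). With the replicate number as a block in the fit to all arrays, Mkx did not pass.

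Penk encodes the precursor of the enkephalins, and nearly all of its difference was in the chow step. It read 11.31, 11.32, 11.50 and 11.43 in wild-type mice and 12.13, 11.77, 12.57, 11.78 and 12.54 in treated APP-PS1 mice. Replicates 1, 3 and 5 were highest, and replicates 2 and 4 were a little above the wild-type range. The Penk difference was 0.77 ± 0.14 (1.70-fold; adjusted p = 0.054), with a genotype step of 0.02, a chow step of 0.75 and -0.01 for ibuprofen in wild-type mice. Without APP-PS1 ibuprofen replicate 2, and without replicate 4, it passed at 0.86 (adjusted p = 0.00547 and 0.013). Penk passed in 5 of 24 alternative settings, and its adjusted p reached 0.279 among the others.

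Penk is also abundant in striatum, and the striatal markers were therefore read beside it. Penk is itself on that list, and without it the other 10 genes had a median of 0.01. Their mean was 9.22, 9.43, 9.31, 9.19 and 9.21 on the treated arrays and 9.20, 9.15, 9.36 and 9.21 on the wild-type arrays, which overlap. Drd1, a dopamine receptor gene, gave 0.52 ± 0.13 (adjusted p = 0.336). It passed in 2 of 24 alternative settings, among them without APP-PS1 ibuprofen replicate 2 (adjusted p = 0.0255). Drd2 and Tac1, a tachykinin gene, gave 0.00 and -0.03, and Rasd2 gave -0.27.

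Other neuropeptide genes lay near wild-type. The median of 20 peptide and opioid receptor genes was -0.02, with Penk the 1 member at an unadjusted p under 0.05 in the higher direction and Cck and Sst, peptides of interneurons, in the lower (-0.13 and -0.17). Of all genes 1.47% were higher and 1.81% lower at that p. Pdyn, the dynorphin precursor, gave -0.11. Gal, which encodes galanin and was not in that list, read 7.28, 7.41, 7.34 and 7.37 in wild-type mice and 7.79, 7.73, 8.25, 7.73 and 7.95 in treated APP-PS1 mice. All treated arrays lay above the wild-type ones, by 0.54 ± 0.12 on average (1.45-fold; adjusted p = 0.172), and here the genotype step was the larger (0.37 against 0.17).

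Of the other higher genes, Rprm, a p53-induced cell-cycle arrest gene, read 9.70, 9.61, 9.69 and 9.63 in wild-type mice and 10.50, 10.03, 10.48, 10.43 and 10.95 in treated APP-PS1 mice. The wild-type arrays were tight and all treated arrays above them, with a difference of 0.82 ± 0.17 (1.77-fold; adjusted p = 0.14). Rprm passed without APP-PS1 ibuprofen replicate 2, at 0.93 (adjusted p = 0.0228). It passed at 0.70 (adjusted p = 0.0222) with the replicate block on only the compared groups, a setting chosen after seeing the data. With the replicate number as a block in the fit to all arrays, Rprm did not pass. Plpp4, a phospholipid phosphatase, differed by 0.58 ± 0.12 (chow step 0.48), Tmc6 by 0.37 ± 0.08 (chow step 0.29) and Rassf8 by 0.36 ± 0.07 (genotype step 0.28). Their adjusted p lay between 0.111 and 0.172. Without APP-PS1 ibuprofen replicate 2, Plpp4 (adjusted p = 0.0203) and Tmc6 (0.0228) passed. Over 24 alternative settings Plpp4 passed in 3 and Tmc6 in 2.

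Activity and clock genes had medians below 0. Of 25 immediate early genes, which neurons switch on within minutes of firing, 8 were above 0, against 52.6% of all genes (median -0.09). An unadjusted p under 0.05 was found for 6, all lower (1.81% of all genes). With 1 array left out at a time their median ran from -0.15 (without APP-PS1 ibuprofen replicate 3) to -0.02 (without wild-type control replicate 3). Nr4a1 gave -0.34, Nr4a3 -0.31 and Egr1 -0.33, with adjusted p of 0.686, 0.604 and 0.99. The groups overlapped in all 25, and Egr1 read 10.30, 10.62, 10.84 and 10.09 in wild-type and 10.08, 10.19, 10.34, 10.06 and 9.96 in treated APP-PS1 mice. Of 16 clock genes 4 had an unadjusted p under 0.05 in the lower direction and 1 in the higher (1.81% and 1.47% of all genes). Their median was -0.09. It was -0.13 without wild-type control replicate 1 and -0.03 without wild-type control replicate 3. Hlf, a clock-controlled transcription factor, gave -0.28 ± 0.07 (adjusted p = 0.582) with all treated arrays below the wild-type ones. The 31 glutamate receptor and postsynaptic genes had a median of -0.04, and Grik3, a kainate receptor subunit, gave -0.28. Among 19 GABA genes 2 were higher and 4 lower at that p, with Gabrd, the receptor subunit of granule cells, at -0.32 and Gabrb1 at 0.18.

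**Figure D3:**
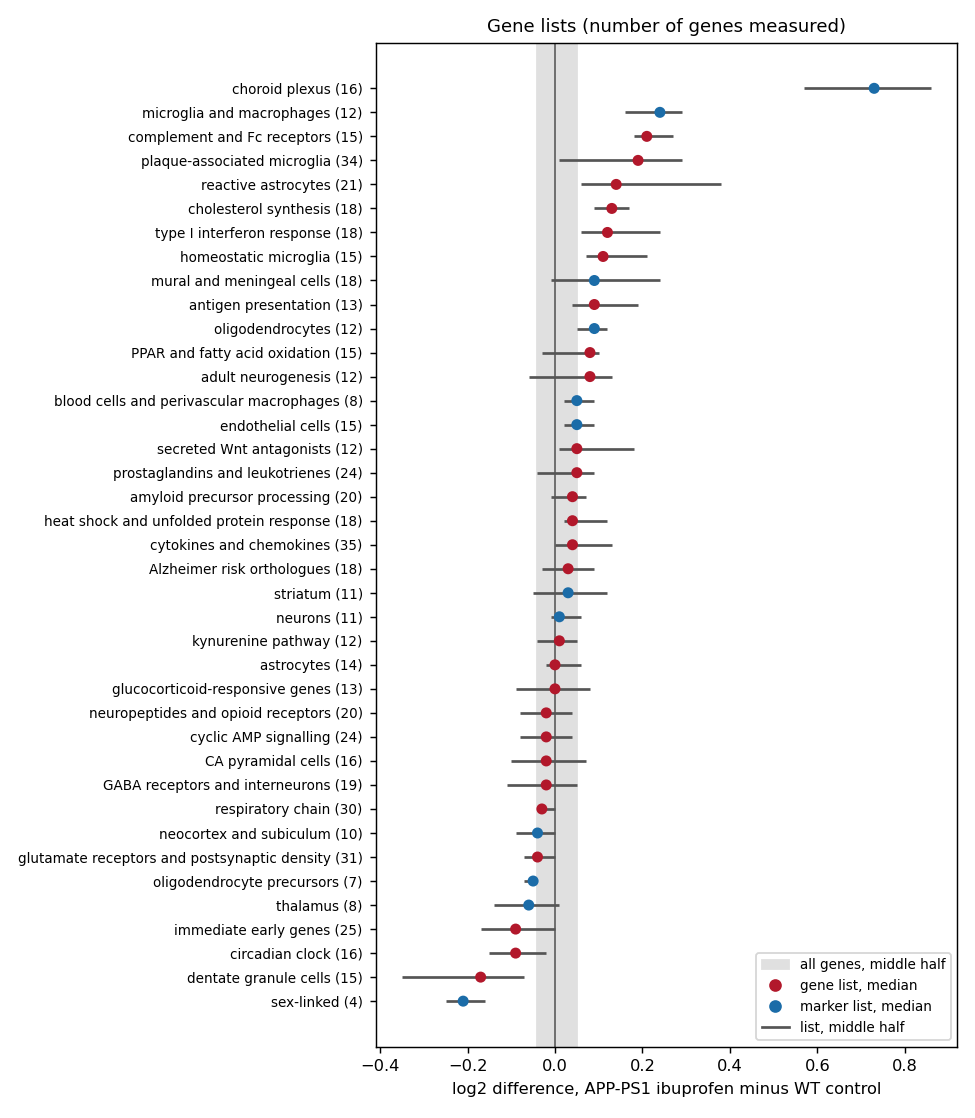
Median log2 difference (points, horizontal axis) and interquartile range (lines) of each gene list (red) and marker list (blue), with the number of genes measured, over the interquartile range of all genes (grey band). Choroid plexus markers lie farthest right at 0.73, microglial lists between 0.11 and 0.24, and granule cell markers at -0.17.

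Markers of other tissues were read beside these genes. The 16 choroid plexus markers had the largest list median, 0.73 (genotype step 0.52, chow step 0.18). All 16 were above 0 (52.6% of all genes were), but none had an unadjusted p under 0.05. Their mean was 9.90, 7.96, 8.90, 8.01 and 9.93 on the treated arrays and 9.24, 8.11, 7.65 and 7.77 on the wild-type arrays, so both groups held high and low arrays. The median was 0.41 with the replicate block and 0.88 with array weights. It was 0.47 without APP-PS1 ibuprofen replicate 1 or 5, and 1.06 without wild-type control replicate 1. Ttr, the transthyretin gene of choroid plexus, ran from 10.61 to 13.93 in wild-type and from 11.03 to 14.17 in treated APP-PS1 mice, a difference of 1.10 ± 0.81 (adjusted p = 1). With the choroid plexus mean as a covariate the test again called 3 genes, the same 3. Treated replicates 1, 3 and 5, high in choroid plexus markers, were also the highest for Penk, and replicates 1 and 5 for Cst7, Ccl3 and the microglia and macrophage mean. With that covariate Penk differed by 0.74 (adjusted p = 0.0826).

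Oligodendrocyte markers had a median of 0.09 over 12 genes and a mean of 10.93 to 11.35 on the treated and 11.03 to 11.16 on the wild-type arrays. Endothelial markers had a median of 0.05 over 15 genes, with wild-type replicate 2 high at 9.77 against 9.44 to 9.47 on the other wild-type arrays. The sex-linked genes other than Xist were low on treated replicate 1: Eif2s3y read 9.43 there and 10.42 to 10.73 on the other treated arrays. Xist lay between 5.44 and 5.82 on all 9 arrays, with a difference of -0.01 ± 0.09 whose sign turned to 0.01 with the choroid plexus mean as a covariate.

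**Figure D4:**
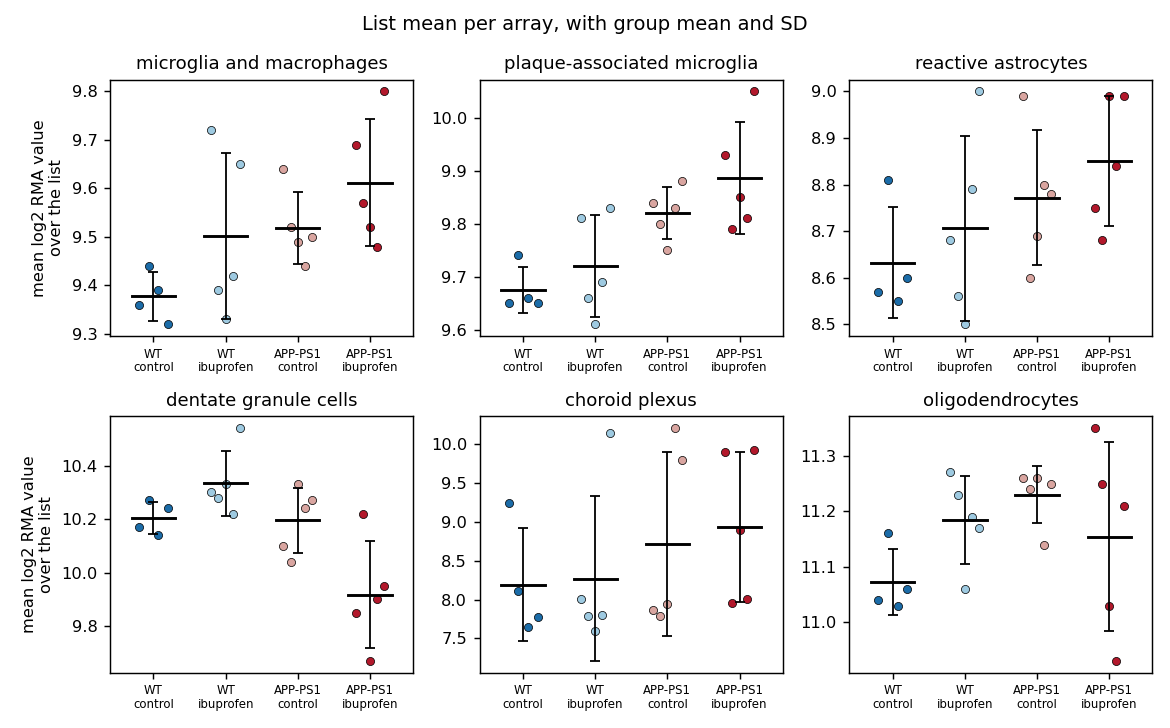
Mean log2 RMA value over a list (vertical axis) on each array of the 4 groups (points), with the group mean and SD (bars), for 6 lists. The microglia and macrophage mean is 9.48 to 9.80 in treated APP-PS1 and 9.32 to 9.44 in untreated wild-type mice, the granule cell mean is low on all treated arrays but replicate 2, and the choroid plexus mean is scattered in every group.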

How the data were processed

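RNA of 19 mouse hippocampus samples was measured on whole-transcript arrays. The deposited values are log2 expression after RMA in Partek 6.5, per the submitters' processing notes. Background and summary settings are not given in the sources used here. Of 35556 probe sets, 21789 carried 1 gene symbol in the 2016 platform annotation, 1621 several and 12146 none here, and 21698 of those with 1 symbol matched RefSeq by Entrez ID. The probe set with the highest mean was kept, giving 19938 genes.

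limma 3.58.1 in R 4.3.3 was fitted to the 4 groups over all 19 arrays (15 residual degrees of freedom) with an intensity trend, two-sided, with Benjamini-Hochberg adjustment over all genes and a threshold of 0.05. It was tested on simulated data. The labels do not say whether arrays stem from separate animals, so p-values measure the spread between these samples, which may be technical.

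Named genes were those past the threshold, then those with the smallest p up to 20, a fixed set of 14, and up to 4 members of each list with the smallest p, limited after the data were seen to an unadjusted p under 0.05. Further list members are given outside this rule, among them Bace1, Psen2, Tyrobp, Ctsd, Apoe, P2ry12, Tmem119, Cx3cr1, Il1b, Tnf, Ccl4, Ido1, Kmo, Pdyn, Drd2, Tac1, C1ql2 and Eif2s3y. The comparison, lists and tests were chosen with earlier results of these data known. Alternatives changed the normalization, gene filter, probe-set rule, variance model, array weights, groups, covariates and arrays.

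The compared groups share replicate numbers 1 to 4. Deviations of same-numbered arrays correlated at 0.43, 0.13, 0.12 and 0.60, against -0.47 to 0.28 for arrays of different number. The values 0.13 and 0.12, of replicates 2 and 3, lie inside the range for different numbers. Deviations were taken from group means, so a positive value for 1 pair pushes others of the same array down. Such pairing is at most a hint from the data and not from the labels. The reported errors and p-values come from the fit without a replicate term, and values with the number as a block are given where they change a call.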

Additional observations from a re-analysis of the deposited data

Results flagged for a closer look

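Of 130 groups of values examined, 6 held an array far from the rest, judged by its gap to the nearest other array as a share of the group's range. Chance flags about 1 in 20 such groups. Dsp had a share of 0.886 in treated APP-PS1 mice, where replicate 2 read 9.31 against 8.35 to 8.46, and Arhgap20 a share of 0.837 on the same array, at 11.23 against 10.96 to 11.01. The mean of the sex-linked list had a share of 0.901 in treated APP-PS1 mice, with replicate 1 at 8.44 against 9.08 to 9.15. In wild-type mice on control chow, replicate 2 stood high in the mean of the endothelial list (share 0.907, 9.77 against 9.44 to 9.47) and of the plaque-associated microglial list (share 0.897, 9.74 against 9.65 to 9.66). App had a share of 0.855 in the same group, with replicate 4 at 13.16 against 13.21 to 13.22.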

How the results depend on the processing

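Over 24 settings, Prnp kept a difference of 0.69 to 0.71, App 0.36 to 0.40 and Cst7 0.79 to 0.98, all past the threshold in each. Against 3 higher and 0 lower genes (361 lower at an unadjusted p under 0.05), subtracting array medians gave 5 and 1, leaving out the dimmest 25% of genes 5 and 1, array weights 61 and 46, fitting only the compared groups 4 and 1, the replicate block 4 and 2, and an Xist covariate 4 and 2. Leaving out 1 array at a time gave 3 to 10 higher and 0 to 16 lower, the upper ends without APP-PS1 ibuprofen replicate 2. Of settings chosen after seeing the data, leaving out the 3 arrays that correlate least with the others over all probe sets, all from the groups not compared, gave 13 and 7, and the replicate block on only the compared groups 5 and 4 (added to the 3: Ccl3, Dsp, Gmnc, Mkx, Rprm and Rtl3). The 3 genes were among the calls every time. Of 1965 values of the 82 named genes, 89 passed the threshold under a setting only, none lost it and 6 turned sign, all of Xist: 0.01 with the replicate block and with the choroid plexus covariate, 0.04 with the oligodendrocyte covariate, 0.00 with its own level as covariate, and -0.06 to 0.06 when 1 array was left out (0.03 without APP-PS1 ibuprofen replicate 2, 0.06 without wild-type control replicate 4). The cause was not tested. The number of arrays limits the precision, and the values carry no background flags.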

Other observations

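Genes of cholesterol synthesis were all above 0, 18 of 18 (52.6% of all genes were above 0), with a median of 0.13, and none had an unadjusted p under 0.05. Their genotype step was 0.22 and their chow step -0.08. The 30 respiratory chain genes had 22 below 0 and a median of -0.03. Genes of adult neurogenesis had a median of 0.08 over 12, and Sox11, a transcription factor of immature neurons, gave 0.37 ± 0.11 (limma adjusted p = 0.641) with all 5 treated APP-PS1 arrays above the wild-type ones. Of 12 secreted Wnt antagonists, Frzb gave -0.39 (adjusted p = 1).

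Type I interferon genes varied by array more than by group. Their mean over 18 genes was 7.94, 7.86, 8.12, 7.98 and 8.54 in treated APP-PS1 mice and 7.76, 8.37, 7.90 and 7.76 in untreated wild-type mice, and no member had an unadjusted p under 0.05. The median difference was 0.12. With 1 array left out at a time it ran from 0.02 (without APP-PS1 ibuprofen replicate 5) to 0.18 (without APP-PS1 ibuprofen replicate 2 or wild-type control replicate 2). It was 0.01 with the replicate block and 0.23 with array weights. Antigen presentation genes had a median of 0.09 over 13 genes, also with no member at that p.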
